A study of Caenorhabditis elegans with 2 samples.

Results

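The nuclear hormone receptor genes of *Caenorhabditis elegans* were examined for binding of the zinc finger protein ZTF-4. The family was chosen with earlier results of these data known. Its genes were taken by name, as all protein-coding genes of the assembly WBcel235 whose symbol starts with nhr-. This gave 269 of the 19973 protein-coding genes on the 6 chromosomes. The data came from chromatin immunoprecipitation followed by sequencing (ChIP-seq) of whole L2 larvae of strain OP322, both sexes mixed, in 2 biological replicates of a single group. Both replicates share the allele unc-119(ed3) on chromosome III and wgIs322, an insertion that targets ztf-4, and eGFP-tagged ZTF-4 was the protein precipitated. The labels give neither the promoter of the transgene nor the number of animals per replicate. A control is listed in the labels and is not analysed here.

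Nuclear hormone receptors are transcription factors with a zinc finger DNA-binding domain and, in most, a ligand-binding domain through which small lipophilic molecules can set their activity. Nematodes have expanded this family far beyond that of insects and vertebrates, mostly from an ancestor related to mammalian HNF4, and many of the added genes lie in tandem groups on chromosome V. Best known among the worm receptors are those with roles in fat metabolism, moulting, developmental timing and dauer formation, and for most of the others no ligand or function is established.

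Intervals of 2 kinds were taken from the authors' lists. A peak is an interval that the authors kept after filtering by irreproducible discovery rate (IDR), which scores how repeatable the ranking is from one replicate to the other. A region is any interval of the pooled or single-replicate lists that were given to the IDR step, each of which held 30000. The 1794 peaks coincided with the top 1794 pooled regions by signal, which ran from 843 down to 60.2. The signal value is the authors' own and its scaling is not given, so it ranks regions within a list only. The lists hold no read counts, so the depth is unknown and no counting interval can be given. Genes were paired with every interval whose summit was no more than 500 bp from one of their start sites, so 1 peak can count for several genes.

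DNA at the summits of 6 receptor peaks is shown first, to let the sequence be seen beside the values that follow. The peaks of nhr-1 and nhr-40 were the highest by signal, and those of nhr-119 and nhr-68 also held the words searched for. The nhr-32 peak held none of them and was the richest in G and C of those printed, and the nhr-158 peak was the only one in a chromosome V cluster. Each run is 101 bases centred on the summit, 5′ to 3′ on the strand of the receptor gene, on ce11 (WBcel235, RefSeq copy). Capitals mark 3 words on either strand, which are GAGAGA (reverse complement TCTCTC), then ACGCAG (reverse complement CTGCGT) and GAGCGC (reverse complement GCGCTC).
nhr-1, chrX:17513684-17513784, plus strand: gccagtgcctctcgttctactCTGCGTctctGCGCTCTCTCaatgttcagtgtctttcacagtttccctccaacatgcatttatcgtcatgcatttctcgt
nhr-40, chrX:2599106-2599206, plus strand: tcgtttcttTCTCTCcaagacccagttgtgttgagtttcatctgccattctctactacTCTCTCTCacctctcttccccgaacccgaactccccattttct
nhr-119, chrII:2800976-2801076, minus strand: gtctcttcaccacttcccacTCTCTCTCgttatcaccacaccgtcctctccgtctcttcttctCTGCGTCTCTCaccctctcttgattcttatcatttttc
nhr-68, chrV:11573028-11573128, plus strand: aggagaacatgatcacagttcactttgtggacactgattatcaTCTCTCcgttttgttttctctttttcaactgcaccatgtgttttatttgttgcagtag
nhr-32, chrX:13251650-13251750, plus strand: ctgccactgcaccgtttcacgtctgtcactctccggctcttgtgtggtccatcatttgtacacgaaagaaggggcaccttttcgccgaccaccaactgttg
nhr-158, chrV:3874506-3874606, minus strand: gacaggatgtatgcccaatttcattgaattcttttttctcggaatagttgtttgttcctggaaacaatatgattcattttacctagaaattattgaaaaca

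Of the 269 receptor genes, 16 had a peak near a start site (5.95%), against 1034 of all 19973 protein-coding genes (5.18%). Any pooled region lay near 105 receptor genes (39.0%) and near 34% of all protein-coding genes. Among genes with a region, 15.2% of the receptor genes and 15.2% of all protein-coding genes had a peak. As a family the receptors were therefore close to the background of the genome in these counts. The receptor genes with a peak were nhr-1, nhr-10, nhr-17, nhr-21, nhr-32, nhr-35, nhr-40, nhr-47, nhr-49, nhr-50, nhr-68, nhr-101, nhr-105, nhr-119, nhr-146 and nhr-158. Each had a peak of its own, and no peak was shared by 2 receptor genes.

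None of these peaks was among the highest of the experiment. Their pooled signal values ran from 60.3 to 139 with a median of 79.2, against a median of 84.96 for the 865 peaks near any protein-coding start site. By pooled signal, 7 of the 16 lay in the upper 897 of the 1794 peaks.

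The highest was at nhr-1 (chrX:17514063-17528197), whose peak at chrX:17513552-17513915 lay between genes, 329 bp upstream of a start site. It had a signal of 71.4 in replicate 1 and 65.7 in replicate 2, and ranked 245 and 421 in those lists and 296 in the pooled list. Thus both replicates placed it well inside their own highest 1794 regions.

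Next came nhr-40 (chrX:2594003-2606732), a receptor known from larval development and movement, with a pooled signal of 113.99 at rank 453. Its summit lay in an intron of the gene, 252 bp upstream of an internal start site, and the peak is not counted when only the outermost start of the gene is used. It ranked 437 in replicate 1, with a signal of 55.1, and 748 in replicate 2, with a signal of 51.7.

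The third, nhr-49 (chrI:9869651-9874680), encodes an HNF4-related receptor known for control of fatty acid desaturation and oxidation and of the fasting response. Its peak lay 360 bp upstream of a start site, between genes, with a pooled signal of 111.5 at rank 479. The replicates differed widely here. The overlapping region ranked 148 in replicate 2, the best rank of any receptor peak there, with a signal of 101. In replicate 1 it ranked 8128, with a signal of 16.9, where the 1794th region had 30.5.

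**Figure D1:**
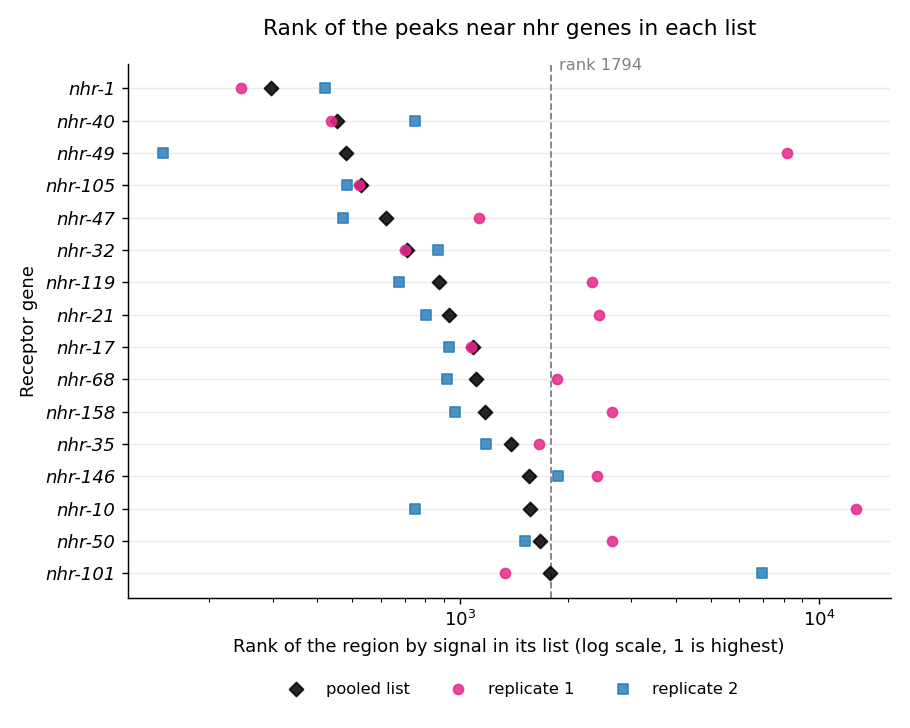
Rank by signal (log scale, 1 is the highest) of each of the 16 receptor peaks in the pooled list (diamonds) and of the highest overlapping region in replicate 1 (circles) and replicate 2 (squares), with genes in order of pooled rank. The dashed line marks rank 1794. The circle of nhr-49 at 8128, the circle of nhr-10 at 12680 and the square of nhr-101 at 6961 lie far to its right.

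Of the 16 peaks, 7 overlapped a region among the highest 1794 of both replicates (43.8%, against 63.4% of all peaks). These were the peaks of nhr-1, nhr-40, nhr-105, nhr-47, nhr-32, nhr-17 and nhr-35. Another 7 overlapped a top region of replicate 2 only, 1 of replicate 1 only (nhr-101) and 1 of neither (nhr-146). Replicate 2 gave the better rank at 12 of the 16 (75%), and at 52.4% of the 1787 peaks with a region in both replicates. No test was made of this difference between replicates.

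Each replicate's own highest regions were also counted. In replicate 1, 10 receptor genes had one nearby (3.72%, against 4.81% of all protein-coding genes), and in replicate 2, 16 did (5.95%, against 5.21%). With replicate 1 alone, nhr-10, nhr-49, nhr-50, nhr-68, nhr-119, nhr-146 and nhr-158 were not among them, and nhr-57 was. At nhr-21 a top region of replicate 1, ranked 1317, lay within 500 bp of a start site but did not overlap the peak. With replicate 2 alone, nhr-101 and nhr-146 were not, and nhr-58 and nhr-256 were.

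A pair of receptors known to act together in the shunt pathway of propionate breakdown, nhr-10 and nhr-68, both had peaks. That of nhr-68 (chrV:11573440-11575709) lay 362 bp upstream of a start site, with a pooled signal of 75.7. It ranked 1862 in replicate 1, just outside the top, and 921 in replicate 2. That of nhr-10 (chrIII:7112295-7115438) lay 267 bp downstream of the start site, in an intron, with a pooled signal of 64.5. The overlapping region ranked 12680 in replicate 1 and 750 in replicate 2. A replicate 1 region within 500 bp of the nhr-10 start site that did not overlap the peak ranked 5087, with a signal of 20.3.

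For 3 of the 16 peaks another protein-coding gene also had a start site within 500 bp, and the lists do not assign such a peak to either gene. At nhr-47 the summit was 9 bp upstream of the start site and 387 bp from that of dnj-19, a DNAJ co-chaperone gene, and it fell in an exon of the noncoding RNA gene C24G6.10. The pooled signal there was 97.6, with ranks of 1125 in replicate 1 and 471 in replicate 2. At nhr-68 the start site of H12C20.7 was nearer, at 88 bp. At nhr-101 the summit was 145 bp upstream and 270 bp from the start site of pms-2, a DNA mismatch repair gene, in whose 5' UTR it fell. This nhr-101 peak had a signal of 60.3, the lowest of the 16, and ranked 1332 in replicate 1 and 6961 in replicate 2. The genes nhr-101 and nhr-68 are neighbours, with starts 2964 bp apart, and their peaks were separate.

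Among the other peaks, nhr-105 on chromosome IV had a signal of 106, 315 bp upstream, and ranked 522 in replicate 1 and 482 in replicate 2. On the X, nhr-32 had 92.5 at 264 bp upstream and nhr-17 had 76.6 at 438 bp upstream. The nhr-17 summit fell in an exon of the noncoding RNA gene C02B4.11. The third of these X genes, nhr-35, had 68.3 at 397 bp upstream. Each of these 4 peaks was in the top of both replicates. On chromosome II, nhr-119 had 83.9 at 426 bp upstream and nhr-21 had 81.9 at 21 bp downstream, with ranks of 2333 and 2437 in replicate 1 and of 673 and 801 in replicate 2. The remaining peaks were those of nhr-50, with a signal of 62.7 at 22 bp upstream, and of nhr-146, with 64.7 at 135 bp downstream, in its own 5' UTR.

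Most receptor peaks lay upstream of the start site. That was so for 13 of 16 (81.2%), against 88.9% of the 1072 pairs of a peak and a protein-coding gene. They tended to lie far out within the window: 10 of 16 (62.5%) were more than 250 bp upstream, against 35.3% of all pairs, and the median position was -289.5 bp against -185 bp. With a window of 250 bp, 5 of the 269 receptor genes had a peak (1.86%), against 3.23% of all protein-coding genes. By annotation, 9 summits were intergenic, 3 in introns, 2 in exons of noncoding RNA genes and 2 in 5' UTRs.

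**Figure D2:**
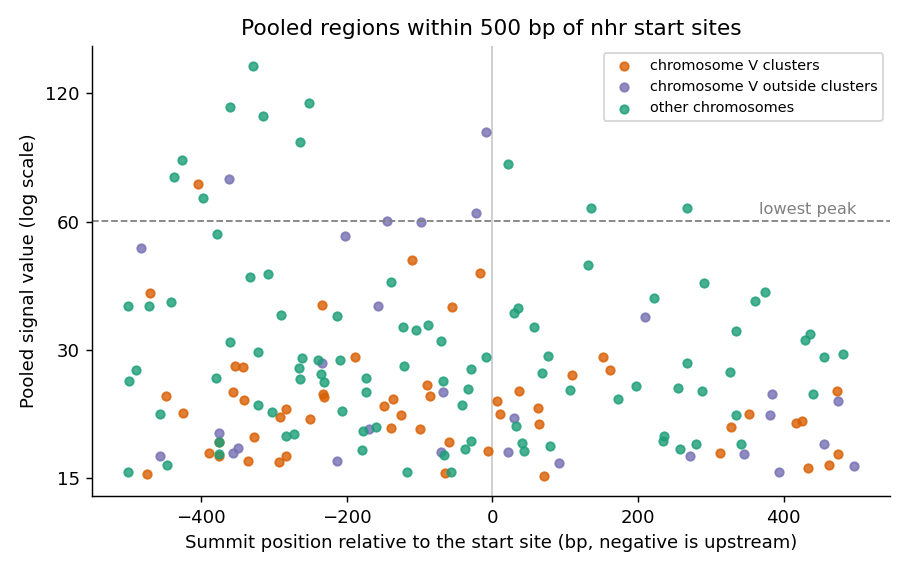
Pooled signal value (log scale) of the pooled regions within 500 bp of receptor start sites, drawn once for each of the 178 gene and region pairs, by summit position relative to the start site. The dashed line marks the lowest peak, at 60.2. A single point from the chromosome V clusters lies above it, at 404 bp upstream (nhr-158).

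The receptors just under the threshold were nhr-256 (signal 59.9, rank 1817), nhr-57 (55.5), nhr-142 (52.1), nhr-58 (48.7) and nhr-88 (47.4). The lowest receptor peak, at nhr-101, and the highest region below, at nhr-256, thus had signals of 60.3 and 59.9. Of these 5 genes, nhr-57, which is known to be induced by low oxygen, ranked 1665 in replicate 1 and 4434 in replicate 2. By contrast nhr-256 ranked 4460 in replicate 1 and 1311 in replicate 2. At nhr-142 and nhr-58 the ranks were 19373 and 8519 in replicate 1, and 1254 and 1552 in replicate 2. These are ranks of the highest region that overlaps the pooled one. At nhr-142 its replicate 2 summit lay more than 500 bp from the start sites, and within that window the best replicate 2 rank was 26881.

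Position in the genome went with the presence of peaks. Of the receptor genes, 167 lay on chromosome V, and 112 of these were in clusters, defined here as runs, on this chromosome, of at least 3 receptor genes with starts no more than 50 kb apart. There were 16 such clusters, with 3 to 19 receptor genes each. In the clusters 1 of 112 receptor genes had a peak (0.893%). Outside them 15 of 157 did (9.55%), made up of 4 of 55 on the rest of chromosome V (7.27%) and 11 of 102 on the other chromosomes (10.8%). The background was 3.26% for all protein-coding genes of chromosome V and 5.81% for those of the other chromosomes. Among the 132 other protein-coding genes within the cluster stretches, 0.758% had a peak, a share close to that of the clustered receptors. The 102 receptor genes on the other chromosomes were not all isolated, as 40 of them lay in 9 runs that meet the same rule. Of these 40, 3 had a peak (7.5%), which were nhr-49, nhr-146 and nhr-17, against 12 of the 117 receptor genes in no run on any chromosome (10.3%). With the rule applied to every chromosome, 4 of 152 receptor genes in runs had a peak (2.63%). No test was made between these groups, since neighbouring genes are not independent of each other.

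**Figure D3:**
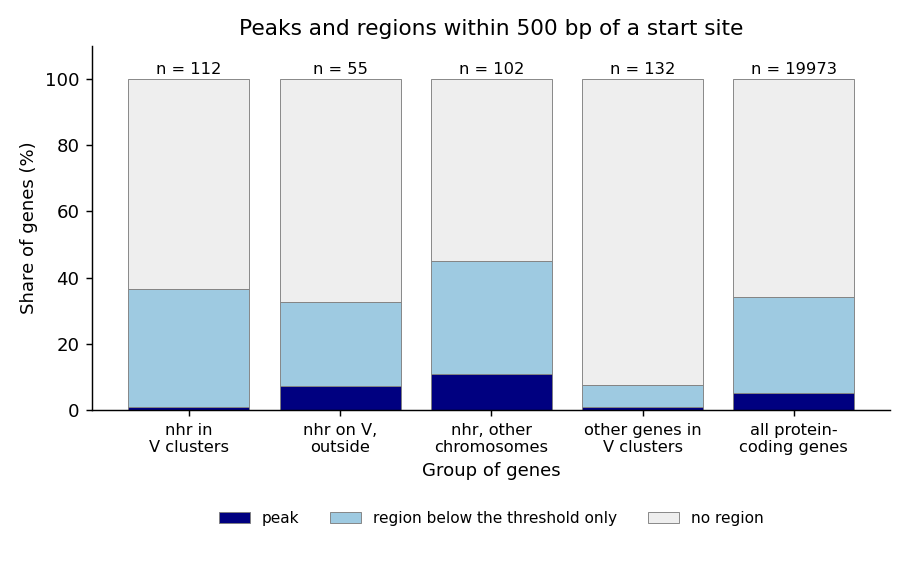
Share of genes with a peak, with a region below the threshold only, and with no region within 500 bp of a start site, for receptor genes by position and for other genes. Peaks were found at 0.893% of clustered receptor genes, 7.27% of those elsewhere on chromosome V and 10.8% of those on other chromosomes.

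Receptors of the chromosome V clusters did not lack regions altogether. A pooled region lay near 41 of 112 clustered genes (36.6%) and 64 of the 157 outside the chromosome V clusters (40.8%), whereas it lay near 10 of the 132 other genes in the cluster stretches (7.58%). The highest signal per gene had a median of 22.1 in these clusters and 32.8 among the other receptors, against 27.3 over all protein-coding genes with a region. The 10 other genes with a region in the cluster stretches had a median of 20.5, lower than that of the receptors there. Of genes with a region, 2.44% of the receptors in chromosome V clusters and 23.4% of the other receptors had a peak. This share was 10% for the other genes in the cluster stretches, from 1 of 10. It was 15.2% over all protein-coding genes.

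**Figure D4:**
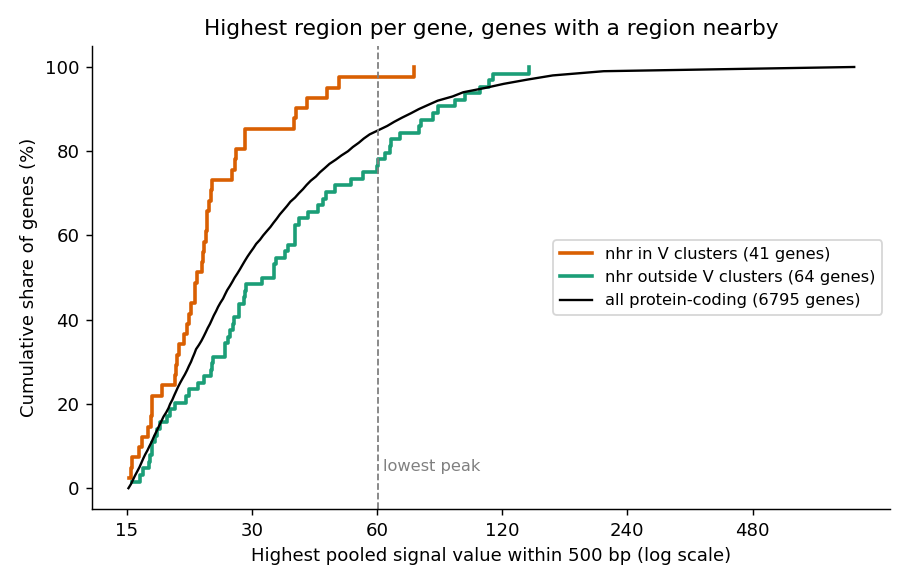
Cumulative share of genes by the highest pooled signal value within 500 bp of a start site (log scale), for receptor genes in chromosome V clusters, all other receptor genes and all protein-coding genes with a region. The curve of the 41 clustered genes lies to the left, with a median of 22.1, and 1 of them reaches the lowest peak (dashed line at 60.2).

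The single clustered receptor with a peak was nhr-158 (chrV:3871174-3874152). It lies in a cluster of 10 receptor genes at chrV:3844429-3908452, where 4 had a region. Its peak was 404 bp upstream with a signal of 73.7, and ranked 2655 in replicate 1 and 970 in replicate 2. With replicate 1 alone no clustered receptor had a top region, and with replicate 2 alone nhr-158 and nhr-58 did.

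In the other 15 clusters the highest signals were those of nhr-58 (48.7) and nhr-182 (45.5), each from a cluster of 19 receptor genes. The nhr-58 cluster, at chrV:392628-541485, had a region at 7 genes, and the nhr-182 cluster, at chrV:2192485-2296977, at 8. The highest signal in a cluster was 40.8 or lower in all the rest, and 3 clusters, with 4, 5 and 4 receptor genes, had no region at all. The nearest peak lay a median of 86663 bp from a start site of receptors in chromosome V clusters, and 32759 bp for the other receptors. For these others the median was 41627 bp on chromosome V and 31340 bp on the other chromosomes.

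By chromosome, the X stood highest, with peaks at 5 of 23 receptor genes (21.7%), against 4.61% of all X-linked protein-coding genes. All 5, at nhr-1, nhr-40, nhr-32, nhr-17 and nhr-35, were in the top of both replicates. Regions of any signal lay near 16 of the 23 (69.6%), against 34.2% of all X-linked genes. On chromosome II the count was 2 of 15 (13.3%, against 4.81% of all protein-coding genes there) and on III 1 of 8 (12.5%, against 8.45%). On IV it was 2 of 33 (6.06%, against 4.88%), and on I, below the share of all genes, 1 of 23 (4.35%, against 6.81%). On chromosome V it was 5 of 167 (2.99%, against 3.26%). These are small numbers and were not tested.

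**Figure D5:**
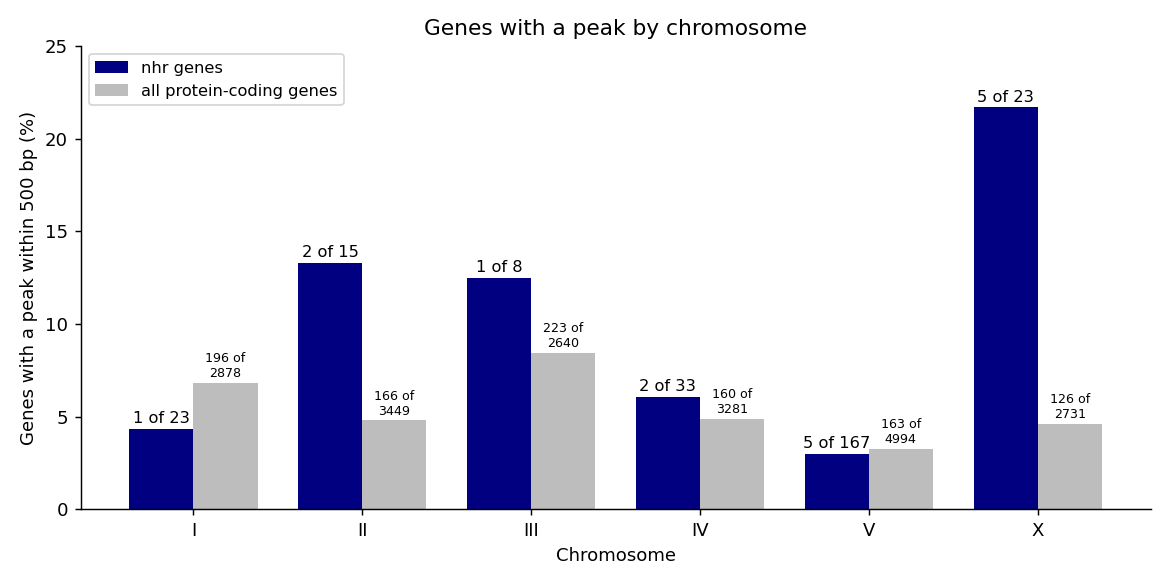
Share of receptor genes (left bars) and of all protein-coding genes (right bars) with a peak within 500 bp of a start site, by chromosome, with the counts above the bars. The share of receptor genes was 21.7% on the X, from 5 of 23, and 2.99% on chromosome V, from 5 of 167.

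Peaks also lay inside receptor genes, away from their start sites. Of the 269 genes, 7 (2.60%) held a peak more than 500 bp from any start site of their own, against 1.48% of all protein-coding genes, and none of the 7 was in a chromosome V cluster. These were nhr-3, nhr-14, nhr-19, nhr-34, nhr-46, nhr-85 and nhr-120, which held 10 peaks between them with signals from 69.2 to 179. Their median of 103 was above the 79.2 of the peaks near start sites, and 8 of the 10 were among the highest 1794 of each replicate. None of the 7 had a peak near a start site as well, so 23 receptor genes had a peak in either place. Their summits fell in introns, apart from 1 in nhr-34, which fell in the piRNA gene 21ur-14817. These peaks were examined after the counts near start sites had been seen. Longer genes hold more sequence away from their start sites. The median gene length was 2309 bp for receptor genes and 2027 bp for all protein-coding genes. It was 2104.5 bp for receptors in chromosome V clusters and 2677 bp for the other receptors. The part of gene length in these counts was not tested.

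The highest peak of all within a receptor gene was in nhr-19 on chromosome II, which held 3. Its signals were 179, 109 and 99.8 in the pooled list, at 1608, 3384 and 4037 bp from the nearest start site. They ranked 195, 405 and 579 in replicate 1 and 108, 766 and 854 in replicate 2, so both replicates placed all of them in their top. In nhr-3, on the X, a peak 1913 bp from the nearest start site had a signal of 151, and ranked 233 in replicate 1 and 382 in replicate 2. In nhr-14, a receptor linked to iron uptake, a peak 859 bp from the start had a signal of 133, with ranks of 430 and 266. The nhr-46 peak had a signal of 106, with ranks of 503 in replicate 1 and 614 in replicate 2.

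Summit DNA of the highest intron peaks of nhr-19, nhr-46 and nhr-3 is printed in the same form. The nhr-19 and nhr-3 peaks had the highest signals inside receptor genes, and nhr-46 is given beside nhr-19 because both held CTGCGT and TCTCTC, as did an intron peak of nhr-34 that is not printed.
nhr-19, chrII:9603592-9603692, minus strand: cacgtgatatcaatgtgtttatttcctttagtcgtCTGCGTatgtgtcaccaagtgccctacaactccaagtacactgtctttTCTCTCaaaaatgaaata
nhr-46, chrIV:5754099-5754199, minus strand: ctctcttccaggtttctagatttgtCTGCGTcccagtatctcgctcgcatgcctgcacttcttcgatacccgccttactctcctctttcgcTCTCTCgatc
nhr-3, chrX:14560367-14560467, plus strand: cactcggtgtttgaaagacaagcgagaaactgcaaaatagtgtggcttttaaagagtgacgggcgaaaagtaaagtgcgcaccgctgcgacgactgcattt

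The words were taken from earlier results on all peaks of this experiment and were searched on both strands within 50 bp of each summit. GAGAGA lay at 7 of the 16 receptor peaks near start sites, against 26.9% of all peaks and 9.36% of all pooled regions. ACGCAG lay at 3 of 16 (15% of all peaks, 3.38% of regions) and GAGCGC at 2 of 16 (10% of all peaks, 2.12% of regions). The nhr-1 peak held all 3 words, and TCTCTC overlapped GCGCTC there, while 8 of the 16 peaks held none. Of the 10 peaks inside receptor genes, 6 held at least 1 word, as did 8 of the 16 near start sites. At least 1 word lay at 42% of all peaks and 13.3% of all pooled regions. Both printed runs of nhr-19 and nhr-46 held CTGCGT and TCTCTC. G and C made up 22.8 to 58.4% of the 101 bases at the 16 peaks, with a median of 41.1%, against 45.5% over all peaks and 33.7% over all pooled regions. A match is a description of the letters and was not tested as a binding site.

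Receptors with textbook roles were set apart in a list of 31 genes, drawn up with earlier results of these data known. Peaks lay near 6 of them (19.4%) and regions near 20 (64.5%), against 10 (4.20%) and 85 (35.7%) of the other 238 receptor genes. The shares were 5.18% and 34% over all protein-coding genes, and 8.55% and 51.4% over those with several start sites. The 6 listed genes with a peak were nhr-1, nhr-10, nhr-35, nhr-40, nhr-49 and nhr-68. The listed genes had more annotated start sites, 2.74 per gene against 1.56, and so more sequence within reach of the window. They also lay mostly outside the chromosome V clusters, where only nhr-13 and nhr-60 of the list were found. Peaks lay near 0.893% of all receptor genes in those clusters and 9.55% of the other receptor genes. The parts of start sites and of position in these counts were not tested. Of the listed genes 3 had a top region in replicate 1 and 6 in replicate 2.

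Several well-known members had near their start sites only regions below the lowest peak, or none. Of the region signals given next, only that of nhr-25 was below 27.3. That is the median of the highest signal per gene over all protein-coding genes with a region. At nhr-23, the ROR-type receptor needed for moulting, the highest region had a pooled signal of 45.3, ranked 3237, with ranks of 3289 in replicate 1 and 5346 in replicate 2. At nhr-25, which acts in the epidermis and in moulting, the highest had 25.8. At nhr-85, a relative of mammalian Rev-erb with a role in developmental timing, a region near a start site had 36.1. A peak of signal 69.2 lay 783 bp away from the start sites of nhr-85, in an intron, and ranked 792 in replicate 1 and 3693 in replicate 2. At nhr-31 the highest region had 38.1, at nhr-64 36.7 and at nhr-66, a partner of nhr-49 in lipid metabolism, 33.9. The 11 listed genes with no pooled region included nhr-8, nhr-13, nhr-67 and nhr-80, of which nhr-13 and nhr-80 are also known as partners of nhr-49.

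None of 5 receptors with other names had a peak, a count too small to set against the 5.18% of all protein-coding genes: daf-12, which responds to the steroid hormones of dauer control, had a region of signal 24.2, sex-1 15.4 and fax-1 16.5, and unc-55 and odr-7 had none. Among coregulators, din-1, the corepressor that binds DAF-12, had a peak 82 bp upstream of a start site with a signal of 127, ranked 457 in replicate 1 and 441 in replicate 2. That is above all receptor peaks near start sites other than nhr-1. The Mediator subunit gene mdt-15 (43.3), the acetyltransferase gene cbp-1 (36.7) and the corepressor gene gei-8 (34.0) had regions below the threshold within 500 bp, and the nearest peak to cbp-1 lay 919 bp away. Of the genes for hormone synthesis, daf-9, daf-36 and hsd-1 had no region and dhs-16 had one of 17.7. Of 5 known receptor targets none had a peak, and this count is likewise too small to set against that background. The desaturase gene fat-6 had a region of 40.7 and the propionate shunt gene acdh-1 one of 19.7, while fat-5, fat-7 and acs-2 had none. The nearest peak to acs-2, which encodes an acyl-CoA synthetase, lay 637 bp from its start site.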

How the data were processed

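ChIP-seq was carried out on 2 biological replicates of 1 group. The authors deposited region lists on the builds ce10 and ce11, and the signal value in their seventh column is the authors' own. Per the file headers of the deposited listing, each region list derives from the alignments of 1 replicate or of both. Caller, version, IDR threshold and signal scaling: not given in the sources used here. Lists on ce10 were not used, because no coordinates were converted.

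Genes and start sites came from Ensembl release 115 (WBcel235, the same assembly as ce11) and sequence from RefSeq. All last region ends lay within the reference chromosomes. Distances, counts and shares were computed with Python 3.11.15 and pandas 2.3.3, and the assignment of regions to genes was checked on simulated data. Top regions of a replicate were its 1794 highest. An overlap meant at least 1 bp, and the highest overlapping region was taken. No significance test was run, because the receptor family was chosen with earlier results known and neighbouring genes can share peaks. The design has 1 group, so no groups of samples could be compared either. The receptor genes, gene lists and words were chosen with earlier results of these data known. Genes named were those with a peak, the 5 next below, the listed role genes and neighbours sharing a peak. The receptors with peaks inside them, with the choice of printed sequences, were added later.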

Additional observations from a re-analysis of the deposited data

How the results depend on the processing

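The count of receptor genes with a peak moved with the choice of peaks. It ranged from 10 to 16 when 1 replicate was left out, and was 7 with the 897 peaks of highest signal, 7 when a top region of each replicate was required, 25 with the 3588 highest pooled regions and 5 with a window of 250 bp, against 16 as reported. As shares of the receptor genes, the alternative counts were 3.72 to 5.95%, 2.60%, 2.60%, 9.29% and 1.86%. The corresponding shares of all protein-coding genes were 4.81 to 5.21%, 2.81%, 3.45%, 8.71% and 3.23%. The clustered count of 1 ranged from 0 to 2 when a replicate was left out. It was 0 with the highest 897 peaks, when a top region of each replicate was required and with 250 bp, 3 with 3588 regions and 2 with a cluster gap of 100 kb. It was 4 of 152 with the same rule on every chromosome, an alternative chosen after seeing the data. The count of 15 outside these clusters was 7 with the highest 897 peaks, 7 when a top region of each replicate was required and 5 with 250 bp. It ranged from 10 to 14 when a replicate was left out. The share in clusters, as each setting defines them, was below that of all other receptor genes in each of these settings, with 2.63% against 10.3% when runs on every chromosome were counted. With 250 bp, 69 of the 269 receptor genes had a region (25.7%), a setting added after seeing the data. The same share over all protein-coding genes is not given here, so this count has no background beside it. Lower counts under stricter lists or narrower windows follow from their construction, and for the rest the cause was not tested. The other alternatives, among them 1000 bp, the gene start alone, the nearest gene alone and a gap of 20 kb, stayed within 1.5 times. No paired analysis was possible because there is a single group. The unknown depth limits what an absent region can show.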

Other observations

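The following values were looked at after the peaks had been seen. Receptor genes with a single annotated start site had a peak at 7 of 167 (4.19%), and those with several at 9 of 102 (8.82%), against 3.90% and 8.55% of all protein-coding genes of those kinds. Among receptors with a single start site, 0 of 72 genes in chromosome V clusters and 7 of 95 others had a peak. Among those with several, 1 of 40 in these clusters and 8 of 62 others did.

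The 7 peaks with GAGAGA or its reverse complement were also read on the strand of the receptor gene. They held TCTCTC at nhr-1, nhr-40, nhr-105, nhr-119 and nhr-68, and GAGAGA at nhr-47 and nhr-101. Of these genes, nhr-47, nhr-101 and nhr-68 share their peak with a neighbouring gene. Over all 1072 pairs of a peak and a protein-coding gene, 142 held TCTCTC and 108 held GAGAGA on the strand of the gene.

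Several regions lay near some receptors. The most were 7, and 3 genes (nhr-21, nhr-34 and nhr-49) had at least 5.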
